A study of Mus musculus with 8 samples.

Results

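The Bcl2 family of apoptosis regulators was followed here through 9 of its genes, Bcl2, Bcl2l1, Bcl2l2, Mcl1, Bcl2l11, Bad, Bmf, Bak1 and Bok, which were taken by gene symbol from the 18605 genes of the expression table. The RNA came from C3H10T1/2, a mesenchymal line derived from embryos of C3H mice, in 4 groups of 2 libraries each. Non-target control cells were sequenced without osteogenic induction (NC) and after 7 days of it (NC-7d). Cells that carried an shRNA against Nap1l2, a nucleosome assembly protein, were sequenced in the same states (KD-Nap1l2 and KD-Nap1l2-7d). No group was held for 7 days without induction, so that induction and time in culture cannot be told apart. The paper describes delivery of the shRNAs by lentivirus. It calls the control non-target, while its RNA-seq methods write of normal cells, so transduction of NC and NC-7d cells is inferred. The osteogenic medium held dexamethasone, ascorbic acid and β-glycerol phosphate. Nothing in the labels says that the 2 libraries of a group came from separate cultures, and p-values then measure only the spread between these libraries, which may be technical.

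Members of this family decide at the outer mitochondrial membrane whether a cell enters apoptosis. The survival members Bcl-2, Bcl-xL (Bcl2l1), Bcl-w (Bcl2l2) and Mcl-1 bind and hold back the effectors Bak (Bak1) and Bax, which otherwise form pores that release cytochrome c. BH3-only members such as Bim (Bcl2l11), Bad and Bmf report stress and loss of growth factors or of attachment, and they act by occupying the survival members or by engaging the effectors. Bok resembles the effectors in sequence. In bone-forming and other mesenchymal cells, the balance among these groups is known for setting how long differentiating cells live.

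The libraries held between 17420284 and 19427359 estimated counts, so that 3 counts corresponded to 0.154 to 0.172 CPM. All 9 members passed the filter on low counts and were among the 13470 genes tested. Nap1l2 itself had 3 and 3 counts in NC, 2 and 7 in libraries labelled KD-Nap1l2, 15 and 5 in NC-7d, and 7 and 13 in those labelled KD-Nap1l2-7d. Its log2 fold change between the KD-Nap1l2 and NC labels was 0.64 ± 0.98 (SE, edgeR adjusted p = 0.812). The targeted gene was thus not lower where the labels name a knockdown, at counts that could barely show it. The paper reports a successful knockdown in this line by western blot and qPCR, which are not part of these data. Mesenchymal markers such as Col1a1 and Vim summed to 6573 to 8672 FPKM without induction and to 4236 to 5535 FPKM with it. FPKM is a level scaled to transcript length and library size. The 4 endothelial markers summed to 0.34 to 1.56 FPKM and the 4 epithelial markers to 0.44 to 2.13 FPKM. Of the 5 macrophage markers in the table, Ptprc, Csf1r and Itgam stayed under 1 FPKM in every library, while Cd68 and Lyz2 did not. The macrophage list summed to 6.72 to 8.52 FPKM in NC, 7.37 to 9.83 in KD-Nap1l2, 4.72 to 6.58 in NC-7d and 8.75 to 12.2 in KD-Nap1l2-7d, so that the last 2 groups did not overlap. Its part in the members' differences between these groups was not tested. Some libraries stood apart from their partner. Dividing-cell markers summed to 78.0 and 166 FPKM in the 2 NC-7d libraries, and the family relative Bnip3 had 992 and 12037 normalized counts in the 2 KD-Nap1l2 libraries.

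Before induction, Bak1 was the most abundant member in transcript level per length, and after induction Bcl2l1 took this place. In NC, the mean levels ran from 75.0 ± 2.05 FPKM (SD, n = 2) for Bak1 through Mcl1 (41.8), Bad (37.6), Bcl2l1 (30.8), Bcl2l2 (16.98), Bcl2l11 (7.31), Bok (2.84) and Bmf (2.61) to 2.10 for Bcl2. The ranges of Mcl1 and Bad overlapped, as did those of Bok and Bmf, and the other neighbours in this order were separate. In NC-7d, Bcl2l1 led at 84.6 ± 1.01 FPKM (SD, n = 2), followed by Bak1 (70.7), Mcl1 (56.2), Bad (40.3), Bcl2l2 (18.8), Bcl2l11 (8.99), Bmf (4.90), Bok (3.19) and Bcl2 (2.39). Only Bok and Bcl2 overlapped there. The group labelled KD-Nap1l2 kept the first 3 places of NC, and the last of these, Bad, overlapped Bcl2l1, the next gene. The group labelled KD-Nap1l2-7d had the order of NC-7d except that Bok and Bmf changed places and overlapped. Levels summed from the transcript table were scored as the same as those of the gene table, judged by the replicate spread, in 36 of 36 cases. For Bcl2l11 in NC, whose 2 libraries were both at 7.31 FPKM, that spread was 0 and gave no margin.

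**Figure D1:**
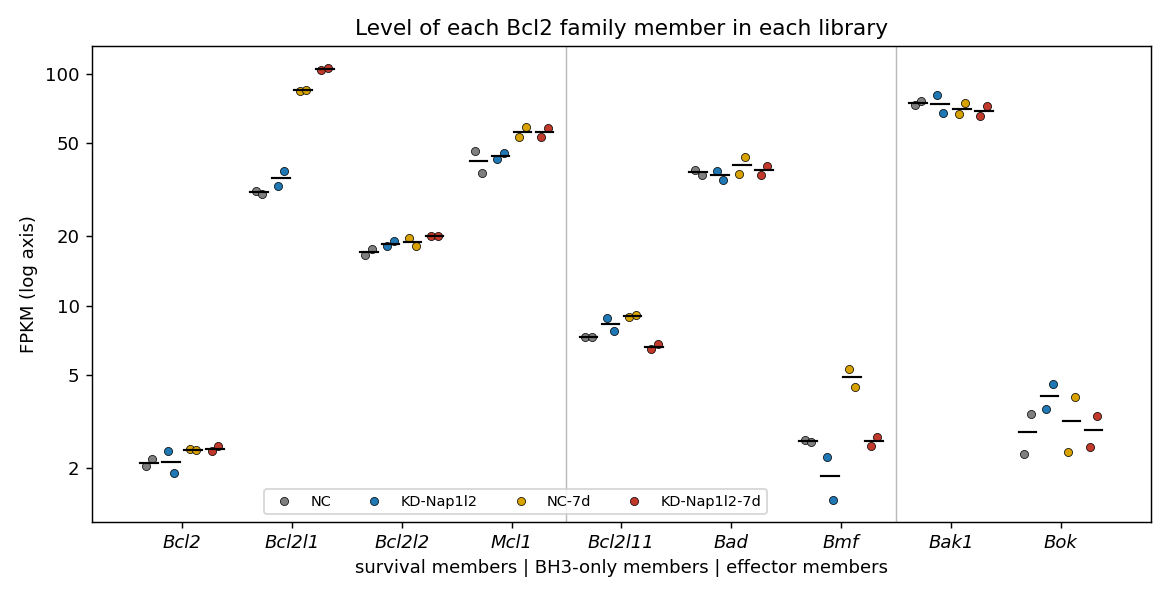
FPKM of the 9 members (log axis) in the 8 libraries, as points coloured by group, with a black line at the mean of each group and grey lines between survival, BH3-only and effector members. Bcl2l1 sits near 31 FPKM in NC and above 80 FPKM in all 4 induced libraries, and Bmf is highest in NC-7d.

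Induction was the comparison in which members passed the test. Between NC-7d and NC, 2 of the 9 members were called at an adjusted p under 0.05 (quasi-likelihood test of edgeR, adjusted after Benjamini and Hochberg over all genes), Bcl2l1 and Bmf, where 8.21% of all tested genes were called. Between the libraries labelled KD-Nap1l2-7d and KD-Nap1l2, 1 of 9 was called, Bcl2l1, beside 14.2% of all genes. With 9 members, these counts are near the background share and are not read as a result about the family. The normalized counts of the groups did not overlap for 7 of 9 members in NC-7d against NC, beside 57.8% of all genes, and 6 of these were higher after induction, beside 29.4%. In libraries labelled KD-Nap1l2-7d and KD-Nap1l2 they were separate for 8 of 9 members, beside 61.4%, and 6 of these were higher, beside 30.8%.

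Between the knockdown label and control, 0 of 9 members were called before induction, where 0.0817% of all genes were called, and 0 of 9 after it, where 0.0% were. At an unadjusted p under 0.05 these contrasts held 1 member (Bmf, beside 13.7% of all genes) and 2 members (Bmf and Bcl2l11, beside 7.85%). DESeq2 also called 0 of 9 in both. The libraries were separate for 5 of 9 members before induction, beside 43.2% of all genes, and for 3 of 9 after it, beside 42.1%. The median log2 fold change over the members was 0.07 before induction and -0.03 after it, beside 0.01 and -0.01 over all genes tested. The difference of the induction responses between the knockdown label and control was called for 0 of 9 members and 0.0% of all genes by edgeR. In that test 1 member, Bcl2l11, had an unadjusted p under 0.05, beside 7.04% of all genes. DESeq2 called 0 of 9 for this difference as well. The induction and knockdown contrasts share libraries, so a member's values in them are not independent.

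**Figure D2:**
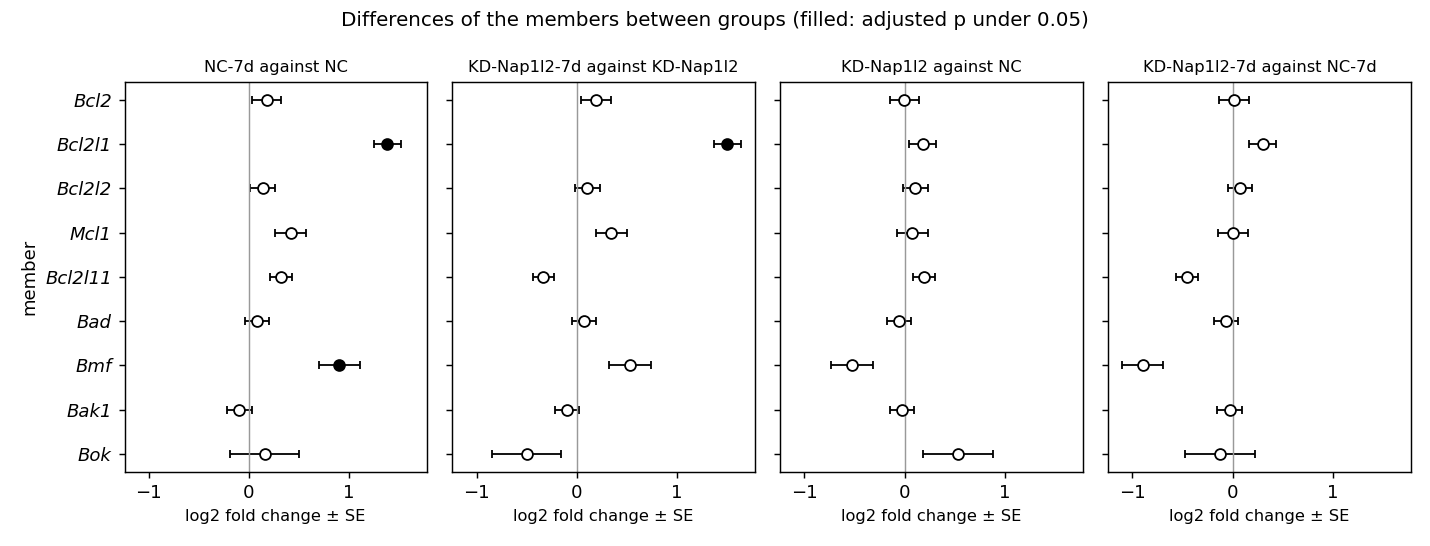
Log2 fold change with its SE (edgeR) for the 9 members in the 2 induction contrasts and the 2 contrasts of the knockdown label against control, where filled points have an adjusted p under 0.05. Bcl2l1 lies at 1.38 and 1.50 in the induction contrasts and Bmf at 0.90 in NC-7d against NC, while no member is filled in the knockdown contrasts.

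Among the survival members, Bcl2l1 rose with induction in both backgrounds. It encodes Bcl-xL, a long-lived survival protein that binds Bak, Bax and BH3-only proteins. Its normalized counts were 1531 and 1474 in NC and 3980 and 3858 in NC-7d. In libraries labelled KD-Nap1l2 they were 1536 and 1864, and in those labelled KD-Nap1l2-7d 4716 and 4926. Every induced library was above every library without induction. The rise was 2.61-fold in the control background (log2 fold change 1.38 ± 0.13 SE, edgeR adjusted p = 0.00192). In the background labelled KD-Nap1l2 it was 2.84-fold (1.50 ± 0.13, edgeR adjusted p = 0.000952), and it ran from 1.37 to 1.65 on the log2 scale when either library labelled KD-Nap1l2 was left out. The responses differed by 0.12 ± 0.19 (edgeR adjusted p = 0.913). After induction, both libraries labelled KD-Nap1l2-7d were above both NC-7d libraries, by a log2 fold change of 0.30 ± 0.13 that did not pass the test (edgeR adjusted p = 0.640).

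Bcl2l1 lies on the minus strand of chr2:152758732-152833803 (GRCm38.p6), and the counts behind this rise came from several annotated transcripts, which were not tested one by one. The main one, XM_011239260.2, was estimated at 710 and 738 counts in NC, 2070 and 2221 in NC-7d, 704 and 1034 in libraries labelled KD-Nap1l2, and 2901 and 2902 in those labelled KD-Nap1l2-7d. Counts of NM_001289716.1, which encodes 233 codons from a start at position 152830666, were 290 and 318 in NC and 794 and 978 in NC-7d. NM_009743.5, with the same 233 codons and a first exon farther upstream, did not follow in the control background. It had 188 and 124 counts in NC and 80.5 and 139 in NC-7d, so that its share of Bcl2l1 FPKM was 13.3% and 8.68% before and 2.28% and 3.62% after induction. In the background labelled KD-Nap1l2 its share was 6.43% and 2.48% before and 2.00% and 2.80% after, and those ranges overlapped. The 250 bases before the start of NM_009743.5 are shown because this transcript has a start of its own and its share was lower after induction in the control background. It was not alone in this, since the share of XM_006498612.2 was 7.02% and 7.10% in NC and 3.37% and 3.19% in NC-7d, and that of NM_001289717.1 was 2.89% and 6.12% in NC and 1.60% and 0.516% in NC-7d. They lie at chr2:152831729-152831978 on the minus strand (RefSeq promoter table, GRCm38.p6), hold no annotated exon, and are printed with CG pairs in capitals (12 pairs, 47.6% GC).
Bcl2l1, upstream start: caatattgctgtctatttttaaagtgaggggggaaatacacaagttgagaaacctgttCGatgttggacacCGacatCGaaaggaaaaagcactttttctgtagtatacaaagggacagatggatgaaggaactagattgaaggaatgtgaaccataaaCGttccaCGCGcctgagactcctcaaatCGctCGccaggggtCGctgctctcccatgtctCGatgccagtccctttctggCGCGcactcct

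Mcl1, at chr3:95656944-95663179 on the plus strand, encodes a short-lived survival protein and was the most abundant survival member before induction. Its normalized counts were 2990 and 2377 in NC, 3486 and 3680 in NC-7d, 2626 and 3027 in libraries labelled KD-Nap1l2, and 3395 and 3780 in those labelled KD-Nap1l2-7d. The induced libraries were above the others in each background. The log2 fold changes were 0.42 ± 0.15 and 0.34 ± 0.15, with edgeR adjusted p of 0.145 and 0.170, and did not pass the test. One transcript, NM_008562.3, made up at least 99.3% of its FPKM in every library. Bcl2l2, the Bcl-w gene at chr14:54883366-54890858 on the plus strand, stayed between 16.5 and 19.9 FPKM in the 8 libraries, and its log2 fold changes were 0.14 ± 0.12 and 0.11 ± 0.12 with induction (edgeR adjusted p = 0.530 and 0.587). Bcl2, the founding member of the family at chr1:106538176-106714290 on the minus strand, was the least abundant survival gene at 1.89 to 2.47 FPKM, with 0.18 ± 0.15 and 0.19 ± 0.15 on the log2 scale (edgeR adjusted p = 0.503 and 0.408). For both genes the normalized counts of the induced libraries were above those of the others within each background, and neither passed the test. For the knockdown label, Bcl2 had log2 fold changes of -0.0021 ± 0.15 before induction and 0.01 ± 0.15 after it (edgeR adjusted p = 0.998 and 0.989). The paper names Bcl2 among the genes significantly lower in Nap1l2-depleted cells, without naming the test. The values here show no such decrease. Bcl2 exons overlap those of D630008O14Rik on the opposite strand and Bcl2l2 exons those of Gm20521 on the same strand, and the strand used in counting is not given in the sources used here, so reads there cannot be told apart.

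Summed over these 4 genes, survival transcripts came to 96.0 and 87.4 FPKM in NC and to 159 and 165 FPKM in NC-7d. The sums were 96.2 and 104 FPKM in libraries labelled KD-Nap1l2 and 179 and 187 FPKM in those labelled KD-Nap1l2-7d. Bcl2l1 provided 32.5% to 36.4% of this sum without induction and 51.8% to 57.9% after it, while the share of Mcl1 went from 42.7% to 48.2% down to 29.7% to 35.8%. The ratio of this sum to the FPKM of Bak1 and Bok was 1.09 to 1.44 without induction and 2.10 to 2.63 with it. The effector Bax, which is not among the 9 genes, was at 75.7 to 103 FPKM without induction and 87.9 to 127.5 FPKM with it. With Bax added to the effectors, the ratio was 0.515 to 0.633 without induction and 0.921 to 0.990 with it. These ratios compare transcripts, not proteins, and rest mainly on Bcl2l1.

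**Figure D3:**
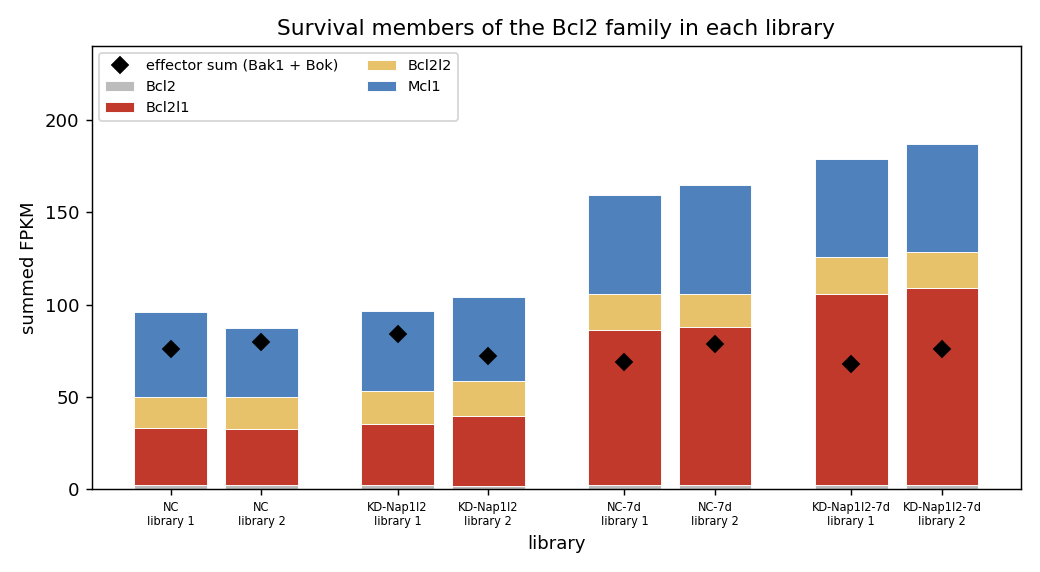
Summed FPKM of the 4 survival members in each library as stacked bars, with the summed FPKM of the effectors Bak1 and Bok as black diamonds. The bars reach 87.4 to 104 FPKM without induction and 159 to 187 FPKM after it, through the Bcl2l1 part, while the diamonds stay between 68.0 and 84.1 FPKM.

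RNA of whole cultures was measured, so that more cells of a type and more RNA per cell cannot be told apart. Other markers also moved with induction, and the mesenchymal sum given above was lower with it. The 5 adipocyte markers summed to 8.25 to 25.1 FPKM without induction and to 138 to 181 FPKM with it, which came from Fabp4, since Adipoq, Plin1, Cidec and Lep stayed under 1 FPKM in every library. The 5 dividing-cell markers summed to 149 to 213 FPKM without induction, to 78.0 and 166 FPKM in NC-7d, and to 93.9 and 96.3 FPKM in libraries labelled KD-Nap1l2-7d. Bcl2l1 was at 83.9 and 85.4 FPKM in the 2 NC-7d libraries and at 104 and 106 FPKM in those labelled KD-Nap1l2-7d. The part of these markers in the Bcl2l1 difference was not tested.

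Among the BH3-only members, Bmf differed the most between groups. Bmf, the Bcl-2 modifying factor, is known as a sensor of detachment that is held at the cytoskeleton. Its normalized counts were 228 and 219 in NC and 462 and 372 in NC-7d. In libraries labelled KD-Nap1l2 they were 181 and 129, and in those labelled KD-Nap1l2-7d 212 and 236. NC-7d thus held the only libraries above 300, and its Bmf level was separate from each of the other groups. Bmf rose 1.87-fold between NC and NC-7d (log2 fold change 0.90 ± 0.20 SE, edgeR adjusted p = 0.0359). In the background labelled KD-Nap1l2 its log2 fold change was 0.53 ± 0.21 (edgeR adjusted p = 0.131). Between the KD-Nap1l2-7d and NC-7d labels it was -0.90 ± 0.21 (unadjusted p = 0.00242, edgeR adjusted p = 0.452), and between KD-Nap1l2 and NC -0.52 ± 0.21 (edgeR adjusted p = 0.328). The difference of the responses was -0.37 ± 0.29 (edgeR adjusted p = 0.823), so that a smaller rise under the knockdown label was not shown.

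The Bmf call depended on single libraries. When replicate 1 or 2 of NC was left out, the edgeR adjusted p became 0.197 or 0.144. Leaving out NC-7d replicate 1 gave 0.151 (edgeR adjusted p, log2 fold change 0.74), and leaving out replicate 1 or 2 of KD-Nap1l2-7d gave 0.0765 or 0.0752. With limma on log2(FPKM + 0.1) it was 0.0667. Without KD-Nap1l2 replicate 1, the log2 fold change in the background labelled KD-Nap1l2 was 0.79 and passed the test (edgeR adjusted p = 0.0483). It was 0.31 (edgeR adjusted p = 0.388) without replicate 2 of that group, the library with the high Bnip3 count.

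In the estimated counts, much of the Bmf difference lay in 1 annotated transcript. Bmf is on the minus strand of chr2:118528757-118549686, and NM_138313.3 starts at position 118549687 of GENCODE's annotation, while NM_001311140.1 starts at 118547559, within its second intron. NM_001311140.1 was estimated at 0 and 3.11 counts in NC, at 152 and 84.5 in NC-7d, and at 0 in all 4 libraries of the knockdown label. It took 35.6% and 22.2% of Bmf FPKM in NC-7d. An estimate of 0 for a transcript is an outcome of dividing shared reads among transcripts and does not show that the start was unused. The 152 and 84.5 counts come from the same division and do not show that the start was used. The counts of NM_138313.3 were 193 and 231 in NC, 244 and 272 in NC-7d, 173 and 124 in libraries labelled KD-Nap1l2, and 202 and 201 in those labelled KD-Nap1l2-7d.

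Bmf was therefore also tested without the counts of NM_001311140.1, an alternative chosen after the data had been seen. This transcript was counted almost only in NC-7d, so leaving it out had to lower Bmf there and move the contrasts with that group. The new values thus show the size of its part and are no test of it. Bmf counts were then 231 and 231 in NC and 280 and 303 in NC-7d. The log2 fold change from NC to NC-7d became 0.41 ± 0.19 and did not pass the test (edgeR adjusted p = 0.239). The background labelled KD-Nap1l2 was then at 0.53 ± 0.20 (edgeR adjusted p = 0.114), and the difference of the responses changed sign to 0.12 ± 0.28 (edgeR adjusted p = 0.947). Between the KD-Nap1l2-7d and NC-7d labels the value became -0.40 ± 0.19 (edgeR adjusted p = 0.682).

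The 250 bases before each of the 2 starts are shown because the estimated use of these starts differed between NC-7d and the other groups. Both are from the RefSeq promoter table (GRCm38.p6, minus strand) with CG pairs in capitals. The upstream window is chr2:118549687-118549936, with 8 CG pairs, and the downstream one is chr2:118547600-118547849, with 5 CG pairs and its RefSeq start 40 bases from the GENCODE start of NM_001311140.1. Both hold 54.0% GC.
Bmf, upstream start: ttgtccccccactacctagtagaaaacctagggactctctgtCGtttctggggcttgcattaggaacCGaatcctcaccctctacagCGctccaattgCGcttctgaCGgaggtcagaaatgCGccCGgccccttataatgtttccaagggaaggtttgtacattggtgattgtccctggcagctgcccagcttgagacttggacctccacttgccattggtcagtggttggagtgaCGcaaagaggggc
Bmf, downstream start: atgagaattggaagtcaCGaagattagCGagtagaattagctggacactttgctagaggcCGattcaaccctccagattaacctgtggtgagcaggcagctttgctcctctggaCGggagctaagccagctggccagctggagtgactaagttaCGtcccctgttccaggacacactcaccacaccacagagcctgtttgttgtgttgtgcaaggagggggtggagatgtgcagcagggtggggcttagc

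**Figure D4:**
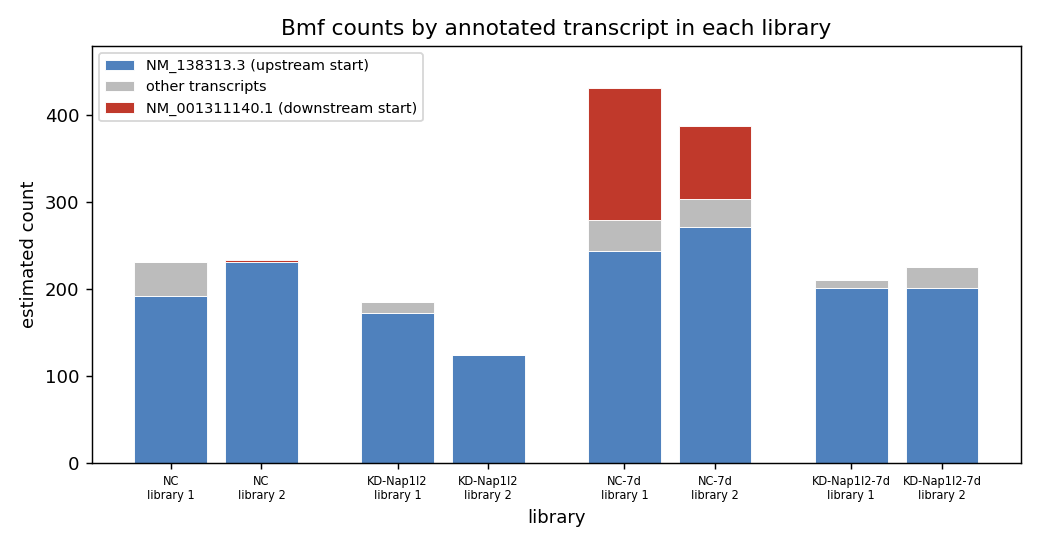
Estimated counts of Bmf in each library as stacked bars, divided into NM_138313.3 with the upstream start, NM_001311140.1 with the downstream start, and the other annotated transcripts. The downstream-start part reaches 152 and 84.5 counts in the 2 NC-7d libraries and at most 3.11 in any other.

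Bcl2l11 encodes Bim, a BH3-only protein that binds all survival members. Its differences with induction lay on opposite sides of 0 in the 2 backgrounds. Normalized counts were 671 and 666 in NC and 843 and 824 in NC-7d, against 779 and 747 in libraries labelled KD-Nap1l2 and 595 and 617 in those labelled KD-Nap1l2-7d. Both NC-7d libraries were above both NC libraries, and both libraries labelled KD-Nap1l2-7d were below both labelled KD-Nap1l2. The log2 fold changes were 0.32 ± 0.11 (edgeR adjusted p = 0.121) and -0.33 ± 0.11 (edgeR adjusted p = 0.0808). Their difference was -0.65 ± 0.15 (unadjusted p = 0.00297, edgeR adjusted p = 0.439), and between the KD-Nap1l2-7d and NC-7d labels the log2 fold change was -0.46 ± 0.11 (unadjusted p = 0.00304, edgeR adjusted p = 0.465). None of these passed the test over all genes, and the dividing-cell markers, whose 5 log2 fold changes were below 0 in the difference of the responses (median -0.68), lay on the same side of 0. Their part in it was not tested.

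Bcl2l11 lies on the plus strand at chr2:128126038-128162547. The transcript of 196 codons, NM_207680.2, made up 62.1% to 81.8% of its FPKM in the 8 libraries. NM_207681.2, of 140 codons, had 33.7 and 55.1 counts in NC and 160 and 127 in NC-7d, against 177 and 111 in libraries labelled KD-Nap1l2 and 74.4 and 35.2 in those labelled KD-Nap1l2-7d. NM_009754.3, of 110 codons, was estimated at 141 and 20.4 counts in NC and at 0 and 117 in libraries labelled KD-Nap1l2-7d, so its estimates differed more within groups than between them. XM_006498614.3 was, like NM_207681.2, estimated higher in NC-7d than in NC and lower in KD-Nap1l2-7d than in KD-Nap1l2. As for Bmf, these estimates divide shared reads among transcripts and do not show that NM_207681.2 itself differed. FOXO factors are known activators of Bcl2l11 under growth factor loss, and the FOXO letters GTAAACA, searched on both strands, were in 1 of the 15 RefSeq promoter windows of the 9 members. This was the upstream window of Bcl2l11, beside 3.65% of all 32851 promoter windows, with the match starting 227 bases before the start. The 250 bases before that start, at chr2:128125788-128126037 on the plus strand (GRCm38.p6), are shown with the match in capitals.
Bcl2l11, FOXO letters: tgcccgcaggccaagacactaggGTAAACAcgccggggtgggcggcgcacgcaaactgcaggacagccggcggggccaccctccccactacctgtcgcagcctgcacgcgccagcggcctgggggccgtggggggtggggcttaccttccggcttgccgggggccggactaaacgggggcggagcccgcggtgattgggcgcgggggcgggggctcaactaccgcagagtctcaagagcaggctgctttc

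The match is a description of letters, not of binding. The FOXO gene Foxo3 had log2 fold changes with induction of 0.72 ± 0.20 in the control background and of 0.41 ± 0.20 in that labelled KD-Nap1l2 (edgeR adjusted p = 0.0738 and 0.215). Foxo1 had -0.17 ± 0.21 and -0.57 ± 0.21 (edgeR adjusted p = 0.674 and 0.107). The part of FOXO factors in the Bcl2l11 differences was not tested. The STAT letters TTCNNNGAA were in 0 of the 15 windows, beside 8.30% of all. The 15 windows had a median GC content of 58.7%, beside 52.7% over all windows.

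Bad is a BH3-only protein that is kept inactive by phosphorylation under growth factor signalling. Its gene, at chr19:6941861-6951905 on the plus strand, was at 34.8 to 43.9 FPKM in the 8 libraries. Its log2 fold changes with induction were 0.08 ± 0.12 in the control background and 0.07 ± 0.12 in that labelled KD-Nap1l2 (edgeR adjusted p = 0.714 and 0.712). The highest value, 43.9 FPKM, was that of NC-7d replicate 2, whose partner had 36.8 FPKM. NM_001285453.1, of 162 codons, made up 82.8% to 90.0% of Bad FPKM, and NM_007522.3, of 204 codons, the rest. Bad exons overlap those of Gpr137 on the opposite strand.

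The effectors did not pass the test in any contrast. Bak1, at chr17:27019812-27028627 on the minus strand, encodes the pore former Bak, which resides in the outer mitochondrial membrane. It was at 73.6 and 76.5 FPKM in NC, 66.8 and 74.6 in NC-7d, 80.5 and 67.6 in libraries labelled KD-Nap1l2, and 65.5 and 72.4 in those labelled KD-Nap1l2-7d. Its log2 fold changes with induction were -0.09 ± 0.12 and -0.10 ± 0.12 (edgeR adjusted p = 0.684 and 0.633), and those of the knockdown label against control were -0.03 ± 0.12 both before and after induction (edgeR adjusted p = 0.941 and 0.979). Bak1 exons overlap those of Ggnbp1 on the opposite strand. The ratio of Bcl2l1 to Bak1 FPKM was 0.398 to 0.560 without induction and 1.14 to 1.58 after it, so that the order of the 2 genes turned.

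Bok, on the plus strand of chr1:93685575-93695770, was far scarcer than Bak1, and its libraries differed widely within groups. The counts were 66 and 102 in NC, 63 and 116 in NC-7d, 99 and 130 in libraries labelled KD-Nap1l2, and 69 and 91 in those labelled KD-Nap1l2-7d. Its log2 fold changes were 0.16 ± 0.35 and -0.50 ± 0.35 with induction and 0.53 ± 0.35 for the KD-Nap1l2 label against NC, with edgeR adjusted p of 0.822, 0.362 and 0.550. None of these passed the test.

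The remaining genes of the pathway were described by lists that were, like the members, chosen with earlier results of these data known. Of 18 further Bcl2 family genes, 14 were in the table and 10 were tested. Bid, a BH3-only protein cleaved by caspase-8, was the only one edgeR called, with 1143 and 738 normalized counts in libraries labelled KD-Nap1l2 and 2015 and 2574 in those labelled KD-Nap1l2-7d (log2 fold change 1.29 ± 0.24, edgeR adjusted p = 0.0140). From NC to NC-7d it was at 0.57 ± 0.24 (edgeR adjusted p = 0.189). Bax, the partner effector of Bak, had 1578 and 1329 normalized counts in NC-7d and 1812 and 1994 in libraries labelled KD-Nap1l2-7d (0.39 ± 0.13, edgeR adjusted p = 0.522). Bbc3, the p53 target Puma, was at 0.59 ± 0.27 and 0.60 ± 0.27 for the knockdown label before and after induction (edgeR adjusted p = 0.380 and 0.652). The list's median log2 fold change was 0.29 in NC-7d against NC and -0.03 in the background labelled KD-Nap1l2, beside -0.0035 and -0.0070 over all genes. For the knockdown label against control it was 0.27 before induction, with 9 of 10 genes above 0, and 0.14 after it, with 7 of 10 above 0.

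Downstream of the mitochondria, 18 genes of the apoptosome, the caspases and the inhibitors of apoptosis were all tested. Birc3, the inhibitor cIAP2, rose from 323 and 270 to 541 and 515 normalized counts in the background labelled KD-Nap1l2 (0.83 ± 0.15, edgeR adjusted p = 0.0136) and was the only one edgeR called. Htra2, a mitochondrial protease, was at 0.59 ± 0.15 from NC to NC-7d, with an adjusted p of 0.0544 by edgeR and 0.0388 by DESeq2. Birc5, the inhibitor survivin, was at -0.83 ± 0.30 in the background labelled KD-Nap1l2, with an adjusted p of 0.105 by edgeR and 0.0358 by DESeq2. The list's medians were 0.09 and 0.01 in the 2 induction contrasts, and 0.05 and -0.18 for the knockdown label before and after induction. Of 10 death receptor genes, 9 were tested, and Cflar, the caspase-8 inhibitor FLIP, rose in the background labelled KD-Nap1l2 (0.55 ± 0.12, edgeR adjusted p = 0.0268). Fas and Tnfrsf10b, both death receptors, had 0.56 ± 0.16 and 0.64 ± 0.12 for KD-Nap1l2 against NC (edgeR adjusted p = 0.1900 and 0.1003).

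Among 26 partners and regulators of the members, 25 were tested. Itpr1, the endoplasmic reticulum calcium channel to which Bcl-2 binds, rose in both backgrounds, from 721 and 967 to 1718 and 1688 normalized counts in the control (1.01 ± 0.16, edgeR adjusted p = 0.0106) and from 698 and 595 to 1178 and 1254 under the knockdown label (0.91 ± 0.16, edgeR adjusted p = 0.0118). Vdac1, a channel of the outer mitochondrial membrane, fell in the background labelled KD-Nap1l2, from 4798 and 8021 to 3241 and 3713 normalized counts (-0.88 ± 0.24, edgeR adjusted p = 0.0447). Atf4, a stress-response factor, was at 0.96 ± 0.21 between the KD-Nap1l2-7d and NC-7d labels (edgeR adjusted p = 0.443). In the contrasts of the knockdown label and in the difference of the responses, edgeR called 0 of the 62 genes tested in the 4 lists. At an unadjusted p under 0.05 there were 11 of them for KD-Nap1l2 against NC, 9 for KD-Nap1l2-7d against NC-7d and 3 for the difference, beside 13.7%, 7.85% and 7.04% of all genes. DESeq2 called 2 of them (Tnfrsf10b and Birc3), 1 (Atf4) and 0, beside 462, 82 and 97 calls over all genes. With induction, DESeq2 called 4 of the 62 in NC-7d against NC (Tnfrsf1a, Itpr1, Htra2 and Foxo3), beside 1555 calls over all genes. There, edgeR called 1, beside 8.21% of all genes. In the background labelled KD-Nap1l2 DESeq2 called 8 (Tmbim6, Cflar, Atf4, Birc3, Itpr1, Vdac1, Birc5 and Bid), beside 2382 calls over all genes. In that background edgeR called 5, beside 14.2% of all genes. These counts are not read as a result about the pathway. The median log2 fold changes of the partners and regulators were 0.02 and 0.06 with induction and 0.13 and 0.03 for the knockdown label, and those of the death receptor genes were 0.06 and 0.0077 with induction and 0.19 and 0.06 for the knockdown label.

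The genes whose log2 CPM were most like those of a member over the 8 libraries were sought among 11280 genes with at least 50 normalized counts on average. They are given as a description, since the libraries share their groups. For Bcl2l1, whose group means spanned 1.68 on the log2 scale, they were Serpina3m (Pearson's r = 0.996) and Mindy1 (0.994). For Bmf, with a span of 1.43, they were Sox4 and Maf (both 0.974). For Bok, with a span of 0.53, they were Zfp128 (0.959) and Pomgnt1 (0.950). The other 6 members spanned 0.13 to 0.46.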

How the data were processed

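RNA-seq of 8 mouse libraries was used, grouped by their labels. For each gene and each transcript, the authors deposited estimated counts that were not normalized, and FPKM values that they scaled to transcript length and library size. The unit of the latter was inferred from the values. Per the labels, reads were processed with BWA, Bowtie2 and RSEM on GRCm38.p6, and versions and strand are not given in the sources used here. Of the genes, 41.1% held a fractional count in some library. RSEM divides reads shared by transcripts or similar genes, which can move counts between them.

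Estimated counts were rounded, scaled by TMM and filtered with filterByExpr, and the 8 libraries were fitted together by group in edgeR 4.0.16 (R 4.3.3). Each contrast was given a quasi-likelihood test, Benjamini-Hochberg adjustment ran over 13470 genes, and a call is at an adjusted p under 0.05. The SE was obtained as the absolute log2 fold change over the root of F. Normalized counts are counts divided by TMM size factors. With 2 libraries per group, no exact test of single values can reach 0.05.

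The 9 members, the 4 pathway lists and the marker lists were chosen with earlier results of these data known. Named genes are the members, Nap1l2, and for each list and contrast those called or at most the 3 with the largest difference. For the 3 members with the widest span, the 2 genes most correlated with each are also named. One gene that this rule named is not reported here. The alternatives tried were RLE size factors, the Wald test of DESeq2 1.42.0, dropping the filter or requiring 10 counts per library, a fit to only those libraries that a contrast compares, a block for the replicate number, limma 3.58.1 on log2(FPKM + 1) and log2(FPKM + 0.1), levels from the transcript table, and each library left out in turn. On simulated data for NC-7d against NC, where 200 of 13470 genes were altered, edgeR found 59 of the 100 altered 2-fold and 95 of the 100 altered 4-fold and made 20 false calls. DESeq2 found 72 and 97 of them and made 49 false calls. The altered genes were drawn above a minimum mean count and were altered in both induced groups. Sequences are from RefSeq's promoter table, which held all 9 members. Tables and figures were made with Python 3.11.15 and matplotlib 3.10.9. Counting limits cover counting error only.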

Additional observations from a re-analysis of the deposited data

Results flagged for a closer look

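The difference of the induction responses of Bcl2l11 between the knockdown label and control was -0.65 on the log2 scale (SE 0.15). It stands here because both NC-7d libraries were above both NC libraries, while both libraries labelled KD-Nap1l2-7d were below both labelled KD-Nap1l2. The test of this difference gave an unadjusted p of 0.00297 and an edgeR adjusted p of 0.439, with a range of 0.207 to 0.998 over the alternatives, so the difference did not pass the correction. The value ran from -0.68 to -0.62 when each library was left out in turn.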

How the results depend on the processing

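Over the 45 log2 fold changes of the members (9 members in 5 contrasts), 660 of 711 values under the alternatives kept their direction and their side of the threshold, 6 lost the call, 1 gained it and 44 changed sign. The Bcl2l1 rises passed the test under every alternative run, with edgeR, DESeq2 or limma adjusted p up to 0.0337 in NC-7d against NC and up to 0.0143 in the background labelled KD-Nap1l2. The lost and gained calls were those of Bmf. The number of members called in NC-7d against NC was 1 in place of 2 with limma on log2(FPKM + 0.1) and 1 to 2 with a library left out, and 1 to 2 in the background labelled KD-Nap1l2. Without the counts of NM_001311140.1, which lay almost only in NC-7d, the Bmf difference of the responses was 0.12 in place of -0.37.

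Over all genes, KD-Nap1l2 against NC had 11 calls with edgeR, 462 with DESeq2, 160 with no filter, 4 with at least 10 counts in every library, 33 and 18 with limma on log2(FPKM + 1) and log2(FPKM + 0.1), 0 with only the libraries compared, and 0 to 576 with a library left out. KD-Nap1l2-7d against NC-7d had 0 with edgeR (1057 at an unadjusted p under 0.05), 82 with DESeq2 and 0 to 1 with a library left out. NC-7d against NC had 1106, and 118 to 1500 with a library left out, and the contrast in the background labelled KD-Nap1l2 had 1912, and 310 to 2239. The difference of the responses had 0 with edgeR (948 at an unadjusted p under 0.05), 97 with DESeq2, 1 with no filter and 0 to 18 with a library left out. The cause of these differences was not tested. The fit with 7 libraries assumes that the lone library of a group varies like the others.

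The 44 changes of sign were in 17 results that did not pass the test. Bcl2 in KD-Nap1l2 against NC (-0.0021) was 0.0057 and 0.0060 with limma on log2(FPKM + 1) and log2(FPKM + 0.1). Mcl1 in KD-Nap1l2-7d against NC-7d (0.0019) was -0.0050 with no filter, -0.0051 with at least 10 counts, and -0.0073 and -0.0074 with limma. The Bak1 difference of the responses (-0.00089) was 0.0015 with DESeq2 and 0.0016 with RLE size factors. With a library left out, the ranges in KD-Nap1l2 against NC were -0.12 to 0.11 for Bcl2, -0.081 to 0.25 for Mcl1 and -0.094 to 0.033 for Bak1. In KD-Nap1l2-7d against NC-7d they were -0.015 to 0.041 for Bcl2, -0.0020 to 0.16 for Bcl2l2, -0.085 to 0.077 for Mcl1, -0.16 to 0.032 for Bad, -0.12 to 0.050 for Bak1 and -0.44 to 0.28 for Bok. In NC-7d against NC they were -0.015 to 0.18 for Bad and -0.25 to 0.47 for Bok. For the difference of the responses they were -0.097 to 0.14 for Bcl2, -0.012 to 0.27 for Bcl2l1, -0.12 to 0.067 for Bcl2l2, -0.25 to 0.083 for Mcl1, -0.10 to 0.090 for Bad and -0.092 to 0.079 for Bak1.

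The deviations of same-numbered libraries correlated at -0.06 to 0.10 across genes. This shows no pairing by replicate number over the whole set of genes and cannot decide it for a subset. Over the 9 members alone the correlations were 0.366 to 0.804, and Bok had the higher count in replicate 2 of all 4 groups. With the replicate number as a block, the calls over all genes were 4 in KD-Nap1l2 against NC, 961 in NC-7d against NC and 1757 in the background labelled KD-Nap1l2, and the members called stayed at 0, 0, 2, 1 and 0 in the 5 contrasts. Bok in KD-Nap1l2 against NC was then at 0.54, with an unadjusted p of 0.0469 (0.163 without the block) and an edgeR adjusted p of 0.350. Depth was lowest for Nap1l2, at 2 to 15 counts, and for Bok among the members, at 63 to 130 counts.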
